A study of Mus musculus with 8 samples.

Results

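Wnt antagonists restrain Wnt signalling either outside the cell or inside it. The 10 genes described here were chosen by name as secreted or intracellular members of that class: the secreted frizzled-related proteins Sfrp1, Sfrp2, Sfrp5 and Frzb, the other secreted factors Wif1, Dkk1, Dkk3 and Notum, and the intracellular Naked cuticle proteins Nkd1 and Nkd2. They were chosen with earlier results of these data known. All 10 were among the 16432 genes listed in the deposited tables, and all 10 passed the filter on low values in every comparison.

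Wnt ligands bind Frizzled receptors and, for the canonical branch, LRP co-receptors, which stabilises beta-catenin so that it acts with TCF/LEF factors on target genes. Frizzled-related proteins and Wif1 bind Wnt ligands directly, Dickkopf proteins act on the co-receptors, Notum removes the lipid that Wnt ligands need for receptor binding, and Naked proteins bind Dishevelled inside the cell. In cartilage, Wnt activity favours hypertrophy and loss of the chondrocyte state, and Frzb is a long-known marker of cartilage primordia.

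RNA was sequenced from primary chondrocytes of the sternum of C57BL/6 mouse embryos at embryonic day 18.5, released with proteinase and collagenase. The cells carrying Col2a1Cre and Idh1 fl/+ together (n = 3, called Cre-Idh1 cells here) express mutant Idh1 according to the series title; the labels do not name the mutation. The controls carried Col2a1Cre alone (n = 3, Cre controls) or Idh1 fl/+ alone (n = 2, floxed controls). In Col2a1Cre, the type II collagen gene's promoter drives the recombinase, so recombination is aimed at cells of the cartilage lineage. Sample labels (fl/+) and the series' design text (fl/fl) disagree on the floxed allele, and the former are used here. The labels do not say whether replicates came from separate embryos or litters, so p-values measure the spread between these libraries, which may be partly technical.

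The libraries held 31860422 to 44988540 reads in listed genes. Col2a1 was the most abundant gene in all 8 libraries, and all 8 of the mature chondrocyte markers looked for were listed. Idh1 itself stood at 3465 to 3948 normalized counts in Cre-Idh1 cells, 3624 to 3991 in Cre controls and 2263 to 2452 in floxed controls, which does not test for the mutation. Sex-linked genes marked 1 of 3 Cre-Idh1 libraries, 2 of 3 Cre control libraries and 0 of 2 floxed control libraries as female. Between Cre-Idh1 cells and Cre controls 2849 of 14851 tested genes passed an adjusted p of 0.05, between Cre-Idh1 cells and floxed controls 2196 of 15212, and between the 2 control groups 2 of 14870.

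The windows of 4 members are printed, each being the 250 bases that precede the transcription start, because Frzb, Sfrp5 and Nkd2 carry the differences reported here and Dkk1, which was barely detected, has the most TCF/LEF matches. The sequences are from RefSeq on build GRCm38.p6, all on the minus strand, and read 5′ to 3′ towards the start site. Capitals mark the TCF/LEF core CTTTGA or its reverse complement.
Frzb window, chr2:80447397-80447646.
Frzb: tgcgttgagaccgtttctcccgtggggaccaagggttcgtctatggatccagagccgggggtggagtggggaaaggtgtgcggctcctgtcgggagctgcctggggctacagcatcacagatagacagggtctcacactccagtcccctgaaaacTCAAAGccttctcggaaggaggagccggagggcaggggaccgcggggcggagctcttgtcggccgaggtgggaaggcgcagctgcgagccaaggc
Sfrp5 window, chr19:42202253-42202502.
Sfrp5: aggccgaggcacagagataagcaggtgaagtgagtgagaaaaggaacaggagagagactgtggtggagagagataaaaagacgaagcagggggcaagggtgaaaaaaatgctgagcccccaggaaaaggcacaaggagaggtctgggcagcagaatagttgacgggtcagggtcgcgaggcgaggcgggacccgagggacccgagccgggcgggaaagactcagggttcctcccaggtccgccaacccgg
Nkd2 window, chr13:73847632-73847881.
Nkd2: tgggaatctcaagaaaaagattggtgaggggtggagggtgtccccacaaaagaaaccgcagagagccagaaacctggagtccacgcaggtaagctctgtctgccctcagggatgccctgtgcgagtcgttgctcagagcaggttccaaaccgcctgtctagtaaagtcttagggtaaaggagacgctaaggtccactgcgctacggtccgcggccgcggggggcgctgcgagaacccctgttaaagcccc
Dkk1 window, chr19:30549497-30549746.
Dkk1: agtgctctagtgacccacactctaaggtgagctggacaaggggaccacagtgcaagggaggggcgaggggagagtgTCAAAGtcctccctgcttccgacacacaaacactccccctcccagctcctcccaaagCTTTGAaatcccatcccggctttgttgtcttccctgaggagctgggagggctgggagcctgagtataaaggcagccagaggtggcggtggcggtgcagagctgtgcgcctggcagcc

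A window was found for 7 of the 10 members, without Sfrp1, Dkk3 and Notum. CTTTGA was searched on both strands, and 13.8% of 32851 windows of this length in the table held it. Frzb had 1 match, on the minus strand of the window 95 to 90 bases before the start, and Dkk1 had 2, at 174 to 169 and at 117 to 112 bases. The windows of Sfrp2, Sfrp5, Wif1, Nkd1 and Nkd2 had none. The GLI core CCACCCA, present in 8.11% of windows, was in none of the 7. These are matches of letters only.

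Per kilobase of exon, the members covered nearly the whole range of expression among genes that passed the filter on low values. Levels of different genes are compared here as normalized counts per kilobase, averaged over all 8 libraries. Frzb stood at 3854, above 98.6% of the 14423 genes that had a length and passed the filter in every pairwise comparison. Genes below the filter are not in this ranking. Wif1 followed at 529 and Sfrp1 at 466, then Nkd1 at 147, Sfrp5 at 122 and Notum at 102. Dkk3 (26.1), Sfrp2 (13.7), Nkd2 (7.62) and Dkk1 (5.11) were low, and Dkk1 exceeded only 5.13% of the ranked genes. Wif1 exceeded Sfrp1 in every library but Cre control replicate 1. Sfrp5 lay above Nkd1 and Notum in all Cre-Idh1 libraries, below Nkd1 in all control libraries and below Notum in all Cre controls, and Nkd2 and Dkk1 overlapped in the controls.

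**Figure D1:**
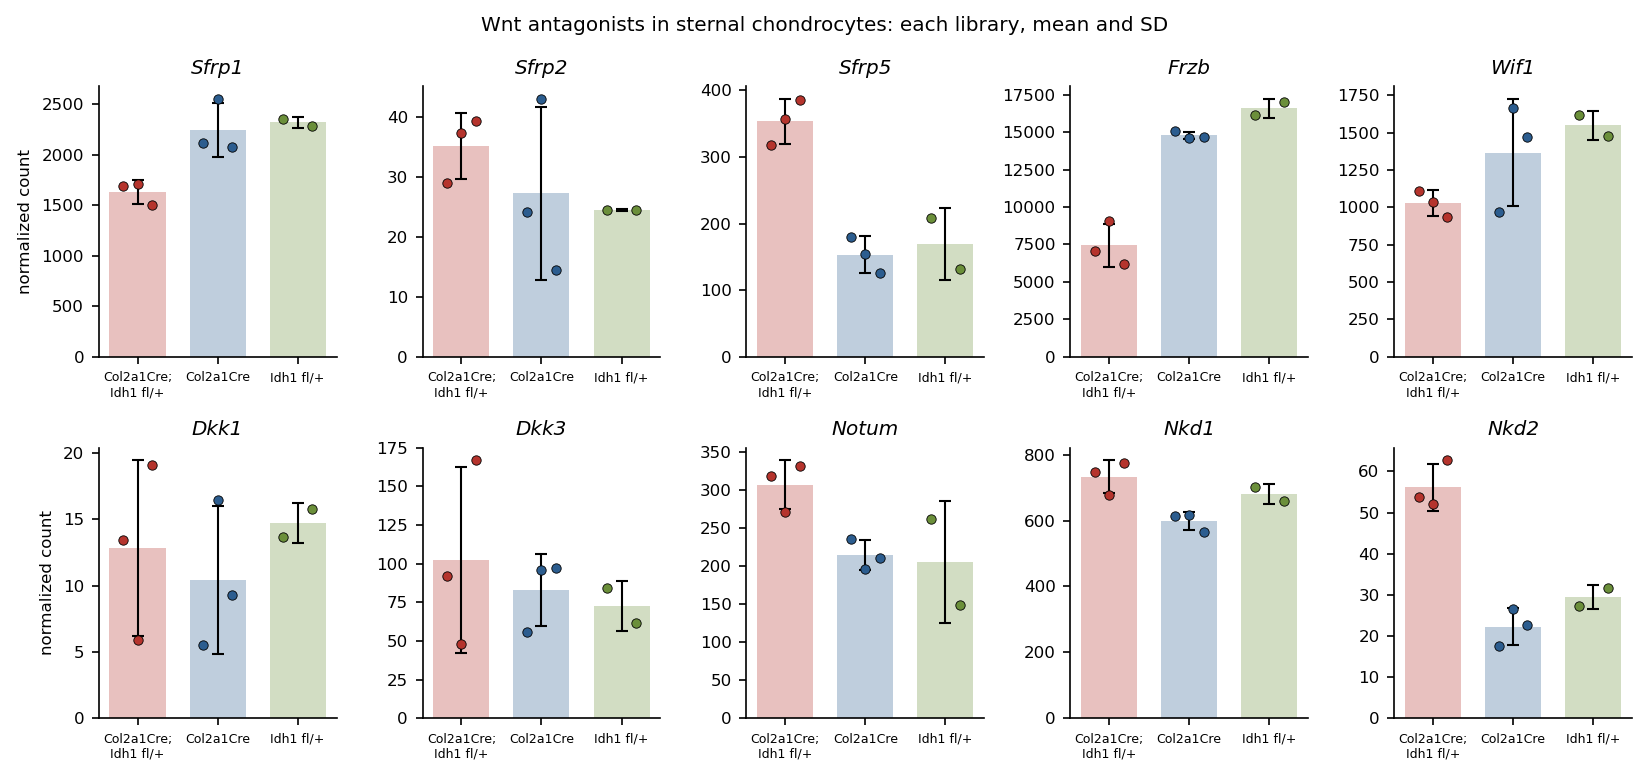
Normalized count of each of the 10 Wnt antagonists by genotype, 1 panel a gene on its own linear axis from 0. Points are the 8 libraries, bars the group means and whiskers the SD; Frzb is lower in the 3 Cre-Idh1 libraries than in any control library, Sfrp5 and Nkd2 are higher, and Dkk1 and Dkk3 overlap.

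The secreted frizzled-related genes moved in different directions. Frzb and Sfrp1 fell in Cre-Idh1 cells and Sfrp5 rose, each against both control groups, while Sfrp2 did not pass the test in either comparison. The 2 comparisons share the Cre-Idh1 libraries and are therefore not independent of each other. In bulk RNA, fewer cells of a type and less RNA per cell cannot be told apart.

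Frzb, which encodes a Wnt-binding frizzled-related protein and is the most abundant member, stood at 7045, 9050.2 and 6217 normalized counts in the Cre-Idh1 libraries. It stood at 15046, 14599 and 14688 in the Cre controls and at 16137 and 17028 in the floxed controls. Every Cre-Idh1 library was well below every control library, and the controls of each group lay close together. The means were 7437 ± 1457 (SD, n = 3), 14778 ± 237 (SD, n = 3) and 16583 ± 630.0 (SD, n = 2). On the log2(normalized count + 1) scale, the difference was -1.01 ± 0.13 (SE) against Cre controls, a 2.01-fold lower level (limma, Benjamini-Hochberg adjusted p = 0.00148), and -1.17 ± 0.16 against floxed controls (limma adjusted p = 0.00559). The call against Cre controls held in every alternative run, and the call against floxed controls was lost without floxed replicate 2 (limma adjusted p = 0.0708).

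Sfrp1, an inhibitor that sequesters Wnt ligands, stood at 1693, 1712 and 1501 in Cre-Idh1 cells. It stood at 2113, 2555 and 2079 in Cre controls and at 2358 and 2284 in floxed controls. The groups did not overlap, but the gap to the lowest Cre control was smaller than for Frzb. The log2 difference was -0.46 ± 0.11 against Cre controls (limma adjusted p = 0.0202) and -0.51 ± 0.11 against floxed controls (limma adjusted p = 0.0227). The first difference no longer passed when Cre control replicate 2 (0.0858) or 3 (0.0537) was left out. The second failed on leaving out Cre-Idh1 replicate 1 or 2 or either floxed library (highest adjusted p 0.187), and under scaling by library total (0.0517).

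Sfrp5, which binds Wnt ligands and is known for restraining Wnt signalling in fat and foregut, rose. Its normalized counts were 318, 357 and 386 in Cre-Idh1 cells, 180.4, 154 and 125 in Cre controls, and 208 and 131 in floxed controls. All 3 Cre-Idh1 libraries lay above all 5 controls. The log2 difference was 1.21 ± 0.17 against Cre controls, a 2.32-fold higher level (limma adjusted p = 0.00209), and 1.09 ± 0.22 against floxed controls (limma adjusted p = 0.0203). Leaving out Cre-Idh1 replicate 2 (0.0580) or floxed replicate 2 (0.176) ended the second call, and no alternative run ended the first.

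Sfrp2, a close relative of Sfrp1 and Sfrp5, was low, with 14 to 47 reads a library. It stood at 28.9, 37.3 and 39.3 in Cre-Idh1 cells, at 24.2, 43.0 and 14.5 in Cre controls, and at 24.4 and 24.5 in floxed controls. The Cre-Idh1 values overlapped the wide range of the Cre controls and lay above both floxed controls. The log2 difference of 0.48 ± 0.40 against Cre controls did not pass (limma adjusted p = 0.430), nor did that of 0.49 ± 0.32 against floxed controls (limma adjusted p = 0.324).

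Among the other secreted factors, Wif1 and Notum gave calls that depended on the control group, and the Dickkopf genes gave none. Wif1, an extracellular Wnt-binding inhibitor, stood at 1110.3, 1038 and 937 in Cre-Idh1 cells. It stood at 966, 1663 and 1469 in Cre controls and at 1619 and 1479 in floxed controls. Cre control replicate 1 lay among the Cre-Idh1 values, and the other 4 controls lay above them. The log2 difference was -0.59 ± 0.12 against floxed controls (limma adjusted p = 0.0198) and -0.38 ± 0.18 against Cre controls (limma adjusted p = 0.187), or -0.61 (0.0238) without Cre control replicate 1. The call against floxed controls was lost without Cre-Idh1 replicate 2 (0.0550) or floxed replicate 1 (0.171) or 2 (0.144), and in 1 fit of all 8 libraries (0.0527).

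Notum, the Wnt deacylase, stood at 318, 271 and 331 in Cre-Idh1 cells, at 235, 197 and 211 in Cre controls, and at 262 and 149 in floxed controls. The Cre-Idh1 libraries were the highest 3, although floxed replicate 1 came within a few percent of the lowest of them. The log2 difference of 0.51 ± 0.14 against Cre controls passed the test (limma adjusted p = 0.0373), and the difference of 0.63 ± 0.25 against floxed controls did not (limma adjusted p = 0.137). The call against Cre controls was lost in 8 of 17 alternatives, among them the authors' deposited table (0.0629), scaling by library total (0.0827) and leaving out Cre-Idh1 replicate 1 or any 1 Cre control (highest adjusted p 0.138).

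Dkk1, which blocks the LRP co-receptors, was near the limit of detection, with 5 to 18 reads a library. It stood at 13.4, 5.88 and 19.1 in Cre-Idh1 cells, 5.50, 16.5 and 9.31 in Cre controls, and 13.7 and 15.8 in floxed controls. A difference between groups could not be resolved at this depth (log2 difference 0.26 ± 0.55 against Cre controls, limma adjusted p = 0.775, and -0.32 ± 0.55 against floxed controls, adjusted p = 0.730). Dkk3, a divergent Dickkopf whose part in Wnt signalling is disputed, stood at 92.0, 48.0 and 167 in Cre-Idh1 cells, 56.1, 96.0 and 97.3 in Cre controls, and 84.0 and 61.4 in floxed controls. The highest and lowest Dkk3 values of all 8 libraries were both in Cre-Idh1 cells, and neither comparison passed (log2 difference 0.16 ± 0.42, limma adjusted p = 0.813, and 0.33 ± 0.48, adjusted p = 0.675). Both Dickkopf differences changed sign when single libraries were left out.

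Of the intracellular pair, Nkd2 rose against Cre controls and Nkd1 did not pass. Nkd2, a Dishevelled-binding antagonist that is itself scarce in these cells, stood at 53.8, 52.0 and 62.7 in Cre-Idh1 cells, at 17.6, 26.5 and 22.8 in Cre controls, and at 27.3 and 31.6 in floxed controls. All 3 Cre-Idh1 libraries were above all 5 controls. The log2 difference was 1.31 ± 0.27 against Cre controls (limma adjusted p = 0.0114) and held in all 17 alternatives. Against floxed controls it was 0.91 ± 0.28 (limma adjusted p = 0.0676), and the authors' deposited table (0.0417) and 1 fit of all 8 libraries (0.0442) put it past the threshold.

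Nkd1, the more abundant paralog and a common canonical Wnt target, stood at 746, 678 and 774 in Cre-Idh1 cells, at 613, 616 and 566 in Cre controls, and at 701 and 659 in floxed controls. The Cre-Idh1 values lay above the Cre controls and overlapped the floxed controls. The log2 difference was 0.29 ± 0.10 against Cre controls (limma adjusted p = 0.0819; 0.0462 in the authors' deposited table) and 0.11 ± 0.12 against floxed controls (limma adjusted p = 0.593). Per kilobase, Nkd1 was 14.7, 13.8 and 13.1 times Nkd2 in Cre-Idh1 cells, against 36.9, 24.6 and 26.3 times in Cre controls and 27.2 and 22.1 times in floxed controls.

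**Figure D2:**
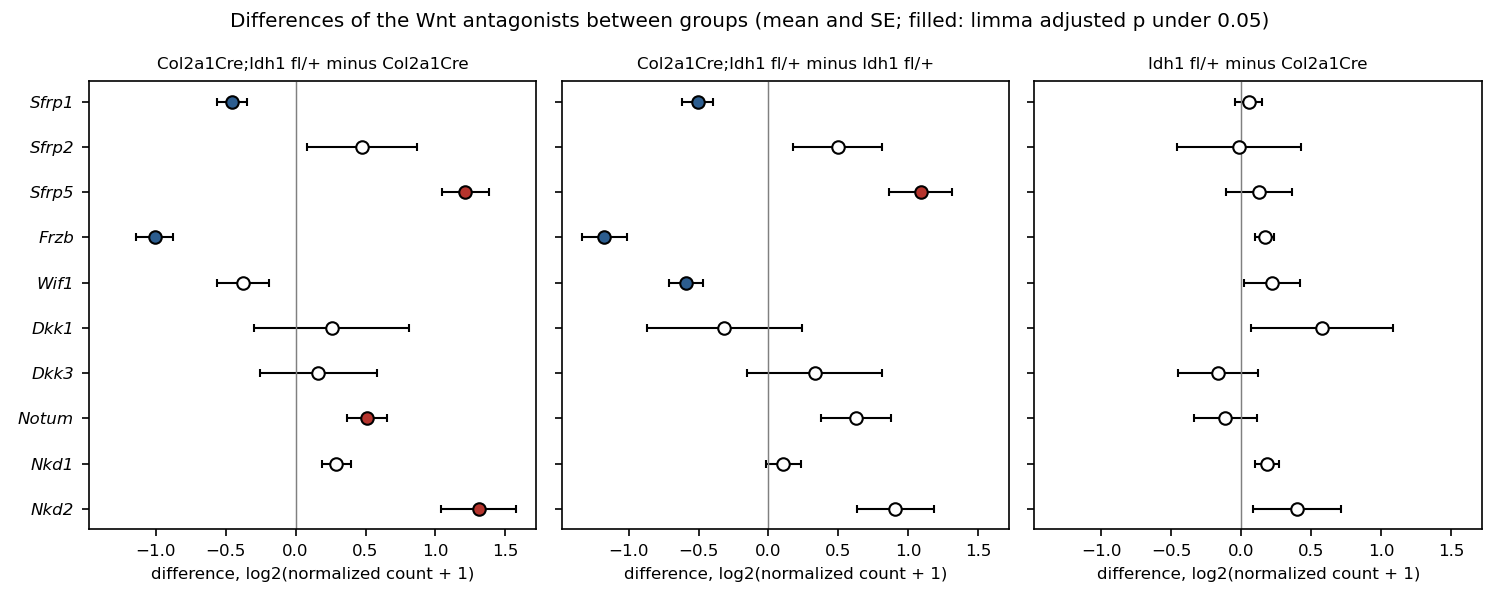
Difference of each Wnt antagonist on the log2(normalized count + 1) scale with bars of 1 standard error, for Cre-Idh1 cells minus each control group and floxed minus Cre controls, filled where limma called it. Frzb and Sfrp1 lie below 0 and Sfrp5 and Nkd2 above it in both panels of Cre-Idh1 cells, while Dkk1, Dkk3 and Sfrp2 have wide bars.

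In all, 5 of the 10 members were called against Cre controls, 3 higher and 2 lower, where 19.2% of all tested genes were called, 9.80% higher and 9.39% lower. In that comparison 6 of the 10 had groups that did not overlap, against 41.0% of all genes. Against floxed controls 4 of the 10 were called, 1 higher and 3 lower, beside 14.4% of all genes (7.47% higher, 6.96% lower), and 7 did not overlap, beside 53.4%. Because the members were chosen with earlier results of these data known, these counts describe them and do not test them as a set. Leaving out Cre control replicate 2 or 3 reduced the first count to 3. The second count went to 1 without Cre-Idh1 replicate 2, to 2 without floxed replicate 1 and to 0 without floxed replicate 2.

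Frzb, Sfrp1 and Sfrp5 were called in the same direction against both control groups, which 12.4% of 14567 genes were. The median difference of the 10 members was 0.27 against Cre controls and 0.22 against floxed controls, beside -0.0092 and 0.0020 for all tested genes. The median absolute difference was 0.47 and 0.55, beside 0.26 and 0.31. Against the mean of the 2 control groups, Frzb (log2 difference -1.09 ± 0.11, limma adjusted p = 0.000121), Sfrp5 (1.15 ± 0.18, 0.00130), Sfrp1 (-0.48 ± 0.09, 0.00331) and Nkd2 (1.11 ± 0.23, 0.00584) passed there and in each leave-out. Wif1 (-0.48 ± 0.16, 0.0405) and Notum (0.57 ± 0.18, 0.0360) also passed, beside 31.2% of all genes, but lost the call in 7 and 6 of the 8 leave-outs.

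Between the 2 control groups the median absolute difference of the 10 members was 0.17, beside 0.10 for all tested genes. With 3 and 2 libraries, a lack of calls does not show that these groups are alike. None of the 10 members was called by limma between floxed and Cre controls, where 0.0134% of genes were, and 1 member, Frzb, had an unadjusted p under 0.05, as 7.62% of genes did (log2 difference 0.17 ± 0.07, limma adjusted p = 0.621). In that comparison 3 members did not overlap (Frzb, Nkd1 and Nkd2, each higher in floxed controls), beside 24.8% of all genes. Over all genes edgeR called 2 (0.0134%) and DESeq2 86 (0.754%). The floxed controls were both male and only 2 in number, so a difference from sex or genotype cannot be told apart there.

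Because Frzb was so abundant, its lower level set the level of all secreted antagonists together. Summed per kilobase over the 8 secreted genes, the normalized counts were 3367, 3950 and 3066 in Cre-Idh1 cells, 5753, 5997 and 5811 in Cre controls, and 6452 and 6559 in floxed controls. All Cre-Idh1 libraries lay below all controls. Frzb made up 64.6%, 70.8% and 62.6% of the sum in Cre-Idh1 cells, 80.8%, 75.2% and 78.1% in Cre controls, and 77.3% and 80.2% in floxed controls.

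Without Frzb the sum was 1191, 1154 and 1146 in Cre-Idh1 cells, 1104, 1487 and 1274 in Cre controls, and 1466 and 1299 in floxed controls. That remainder overlapped the Cre controls and lay below the floxed controls. Within the 4 frizzled-related genes, Sfrp5 contributed 6.11%, 5.54% and 8.17% in Cre-Idh1 cells, 1.81%, 1.56% and 1.30% in Cre controls, and 1.94% and 1.18% in floxed controls. Each Cre-Idh1 share was above each control share. Scaled by library total, the mean sums were 3446, 6024 and 6405 in the same order of groups.

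**Figure D3:**
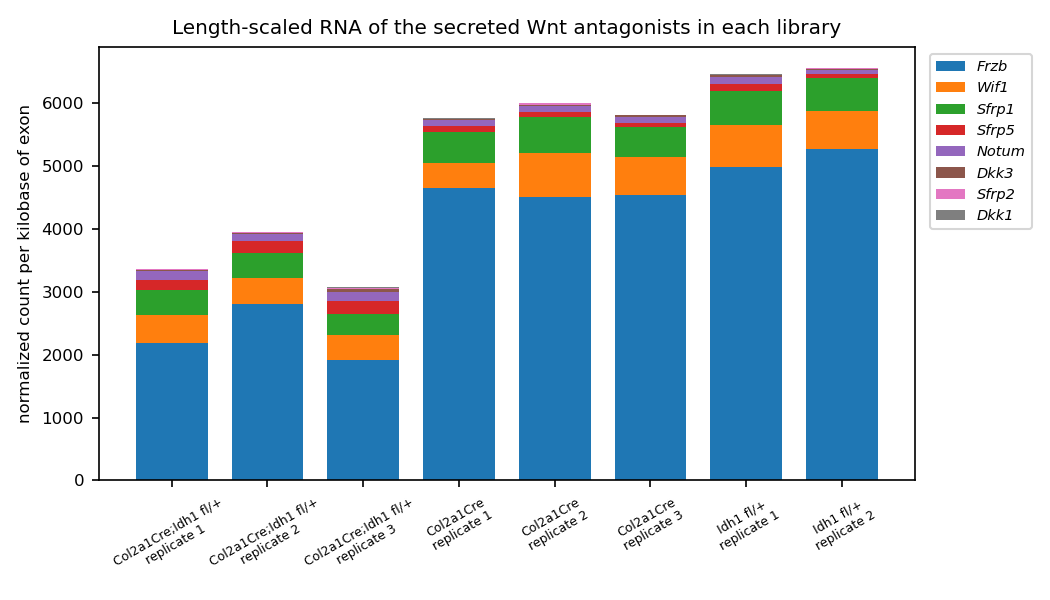
Normalized counts per kilobase of exon of the 8 secreted Wnt antagonists, stacked for each library, by group. The Cre-Idh1 libraries reach 3066 to 3950 and the control libraries 5753 to 6559, and Frzb is the largest portion in each.

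Genes whose level followed these members most closely over the 8 libraries were named by Pearson correlation on the log2 scale, among 14566 genes. For Frzb these were Sorbs2 (r = 0.999), Zdhhc15 (0.996) and Kctd4 (0.994). For Sfrp5 they included Wnt4 (0.986) and Ppm1j (0.981), and for Sfrp1 they were Mgarp (0.985), Tmem45a (0.982) and Nxf2 (0.981). In these 8 points the group difference is shared, and 1191, 434 and 544 genes had r above 0.9 for Frzb, Sfrp5 and Sfrp1.

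Elsewhere in the Wnt pathway, differences also ran in both directions. Of 86 listed pathway genes outside the 10, 25 of 82 tested were called against Cre controls, 15 higher and 10 lower. Of all tested genes 19.2% were called there, 9.80% higher and 9.39% lower. Against floxed controls 18 of 83 were called, 11 higher and 7 lower, beside 14.4% of all genes (7.47% higher, 6.96% lower). None of 80 was called between the controls. Leaving out single libraries moved the first count to between 12 and 30 and the second to between 1 and 25, with the lowest second count without floxed replicate 2, and the only gene then called was Myc. The lists were chosen by known role, with earlier results of these data known, so these counts are a description and not a test of the lists. The shares of all genes called are to be read beside the counts of each list below as well. Sox17 and Wnt10a are in both counts of called genes, although they reached the filter on low values only through the Cre-Idh1 libraries.

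Among other secreted antagonists, 1 of 7 was called against Cre controls: Igfbp4, an insulin-like growth factor binding protein that also antagonises Wnt receptors, rose by 0.99 ± 0.19 (limma adjusted p = 0.00869), and by 0.86 ± 0.21 against floxed controls (0.0382). Leaving out Cre-Idh1 replicate 2 or either floxed library ended the latter call (highest adjusted p 0.213). Of 22 other intracellular or membrane inhibitors, 4 rose and 3 fell. Sox7, a transcription factor that can restrain beta-catenin and TCF, rose by 2.34 ± 0.35 (limma adjusted p = 0.00267), from 9.90 to 21.04 normalized counts in Cre controls to 58.4 to 81.4. Its relative Sox17 rose by 1.79 ± 0.41 (0.0179) from under 6 counts in each Cre control. Sox17 reached the filter on low values only through the Cre-Idh1 libraries, and Sox7 did not reach it in all 3 Cre controls, so both entered this test through libraries in which they were high.

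Sox7 and Sox17 are also expressed in endothelium, whose 8 markers summed to 425 to 977 normalized counts in Cre-Idh1 cells, 308 to 347 in Cre controls and 330.4 to 417 in floxed controls, with 1 of 8 higher against Cre controls. Their part in the Sox7 and Sox17 results was not tested. Dact2, a Dishevelled-binding protein, and Axin1, a scaffold of the beta-catenin destruction complex, rose by 1.25 ± 0.34 (limma adjusted p = 0.0328) and 0.27 ± 0.08 (0.0477). Lower were the destruction-complex protein Amer1 (-0.46 ± 0.11, limma adjusted p = 0.0225), Dact1 (-0.61 ± 0.17, 0.0341) and Shisa3, which retains Frizzled in the endoplasmic reticulum (-1.36 ± 0.38, 0.0379). Each of these calls against Cre controls except those of Igfbp4 and Sox7 was lost on leaving out 1 of 4 or 5 of the 6 libraries (highest adjusted p 0.161, for Axin1). Against floxed controls Sox7, Sox17, Amer1 and Dact1 passed in the same direction, and Dact2, Axin1 and Shisa3 did not. Sox17, at 3.51 to 4.88 normalized counts in floxed controls, reached the filter there too only through the Cre-Idh1 libraries.

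Among 12 ligand and export genes, 4 rose and 2 fell against Cre controls. Wnt4 rose by 0.98 ± 0.14 (limma adjusted p = 0.00212), Wnt11 by 0.79 ± 0.15 (0.00823), Wnt10a by 1.97 ± 0.39 (0.0105) and Wnt6 by 1.29 ± 0.33 (0.0258). Wnt10a, at 5.49 to 11.4 normalized counts in Cre controls and 0.877 to 6.83 in floxed controls, reached the filter only through the Cre-Idh1 libraries (26.6 to 36.2) in each comparison. Lower were Wnt5b, a ligand of the non-canonical branch active in growth cartilage (-0.68 ± 0.15, limma adjusted p = 0.0170), and Wls, the carrier that takes Wnt proteins to the cell surface (-0.46 ± 0.11, 0.0178). Wnt6 was lost without 3 of the 6 libraries in turn (highest adjusted p 0.0897), Wnt5b without Cre control replicate 1 (0.0634) and Wls without Cre control replicate 2 (0.0920) or 3 (0.0786). Of the receptors and R-spondins, Fzd5 rose by 1.40 ± 0.13 (0.000355), Fzd4 by 0.76 ± 0.14 (0.00794) and Fzd3 by 0.72 ± 0.20 (0.0339), all by limma.

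Rspo3, a secreted potentiator of Wnt signalling, fell by 0.53 ± 0.11 (limma adjusted p = 0.0113). Also lower were the planar polarity receptor Ptk7 (-0.41 ± 0.08, 0.0101) and Fzd7 (-0.33 ± 0.09, 0.0305), so 3 of 23 receptors and R-spondins rose and 3 fell. Fzd3 was lost without 5 of the 6 libraries in turn (highest 0.125) and Fzd7 without 4 (0.136). Ptk7 was lost without Cre control replicate 2 (0.0583) and Rspo3 without Cre control replicate 3 (0.0526). Against floxed controls, Wnt4, Wnt10a, Wnt6, Wnt5b, Wls, Fzd5, Fzd4 and Rspo3 passed in the same direction, and Wnt11, Fzd3, Ptk7 and Fzd7 did not.

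Genes commonly read as canonical Wnt targets were as mixed, with 3 of 13 higher and 2 lower against Cre controls. Myc rose by 1.07 ± 0.09 (limma adjusted p = 0.000299) and by 1.17 ± 0.11 against floxed controls (0.00208). Cd44, the hyaluronan receptor, rose by 0.97 ± 0.17 (limma adjusted p = 0.00557) and Ccnd1, which encodes cyclin D1, by 0.56 ± 0.13 (0.0211). The receptor Tnfrsf19 fell by 1.24 ± 0.17 (limma adjusted p = 0.00196). Tcf7 was also lower (-0.49 ± 0.15, limma adjusted p = 0.0484), and was the 1 of 11 beta-catenin transducers called. Ccnd1 was lost without 4 of the 6 libraries in turn (highest 0.0989) and Tcf7 without 5 (0.186). Cd44, Ccnd1 and Tnfrsf19 also passed in the same direction against floxed controls, and Tcf7 did not. Axin2, the feedback target most often used as a readout and chosen here after its values were seen, did not pass (log2 difference -0.31 ± 0.22, limma adjusted p = 0.352, and -0.59 ± 0.26 against floxed controls, adjusted p = 0.167).

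**Figure D4:**
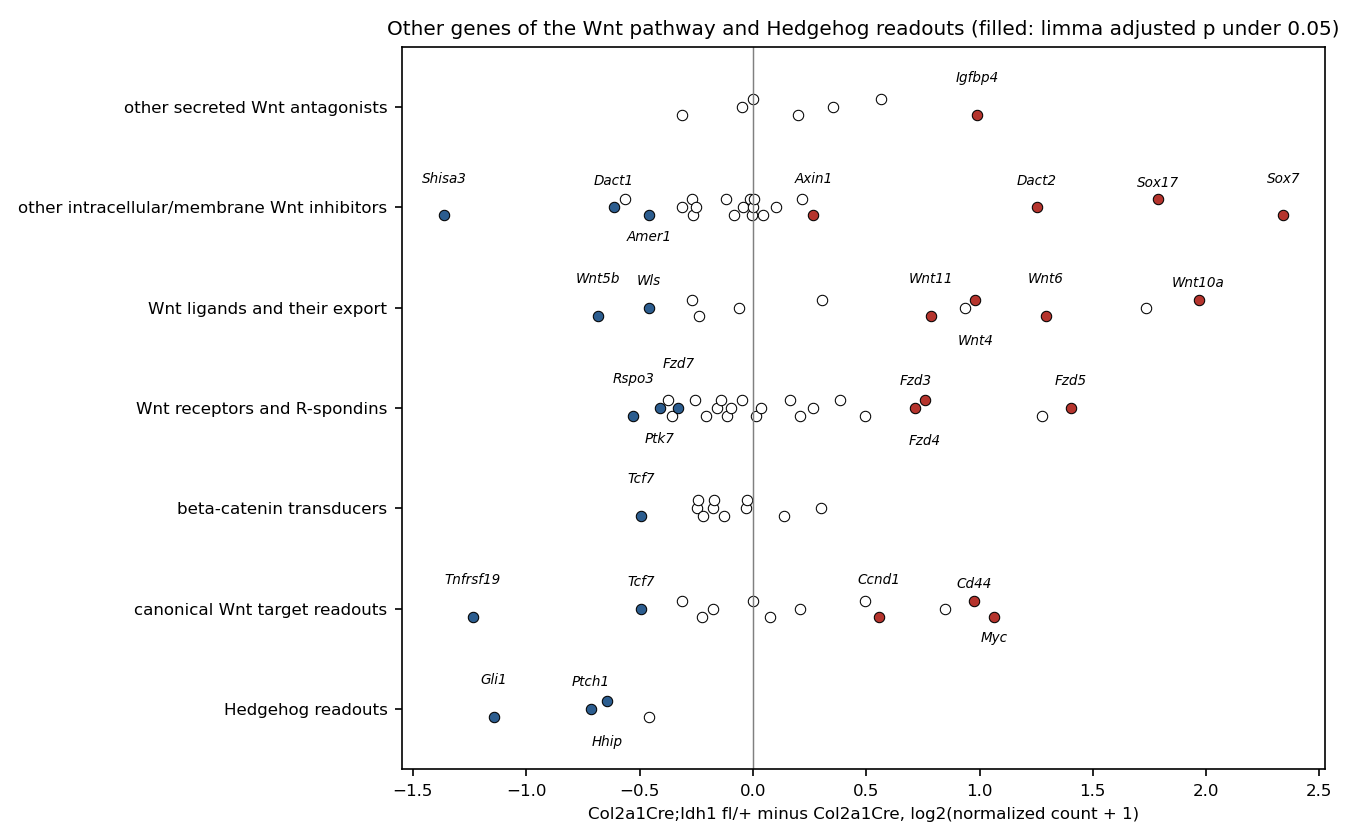
Difference of the tested Wnt pathway genes outside the 10 antagonists, and of the 4 Hedgehog readouts, between Cre-Idh1 cells and Cre controls on the log2(normalized count + 1) scale, by role in the pathway, with called genes filled and named. Called genes lie on both sides of 0 among inhibitors, ligands, receptors and target readouts.

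Markers of other gene groups were also summed, and some sums differed between the groups of libraries while others overlapped. Their part in these results was not tested. The counts of called genes stand beside 9.80% higher and 9.39% lower of all genes against Cre controls. Against floxed controls these shares were 7.47% and 6.96%. The 9 hypertrophic chondrocyte markers summed to 52448 to 78683 normalized counts in Cre-Idh1 cells, 85735 to 97193 in Cre controls and 82910 to 142878 in floxed controls, with 5 of 9 lower against Cre controls and 4 of 9 against floxed controls. Spp1 and Col10a1 were by far the most abundant of these, and Spp1 was not called in either comparison. Ibsp, Mmp13 and Ihh were not lower against Cre controls (log2 differences 1.70 ± 0.78, 0.14 ± 0.41 and 0.004 ± 0.11), and none of them passed. These 5 genes were named after their values were seen. The 4 Hedgehog readouts summed to 2176 to 2607, 3846 to 4478 and 4222 to 4997, with 3 of 4 lower in each comparison. Gli1 fell by 1.14 ± 0.10 against Cre controls (limma adjusted p = 0.000242). The 14 perichondrial and fibroblast markers overlapped between groups (123582 to 173413, 116925 to 176211 and 158908 to 194062), with 4 of 14 lower in each comparison and none higher.

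The 8 articular and superficial zone markers summed to 10105 to 12392, 12103 to 13385 and 12652 to 13959. Of these, 1 of 7 tested was higher and 2 lower against Cre controls, and 1 of 8 was lower against floxed controls. The 12 listed macrophage and osteoclast markers summed to 8480 to 19377 in Cre-Idh1 cells, 5703 to 9679 in Cre controls and 6451 to 7775 in floxed controls. Called higher were 5 of 12 against Cre controls and 6 of 12 against floxed controls. C1qa, at 6.83 to 9.64 normalized counts in floxed controls, reached the filter there only through the Cre-Idh1 libraries. C1qa and C1qc also did not reach it in all Cre controls. Lyz2, Mmp9 and Ctsk, the most abundant of these markers, were not called in either comparison. The 4 listed keratinocyte markers summed to 2608 to 3705, 568 to 705 and 549 to 557, while Krt5, Krt14 and Trp63 were not listed. Of these markers, 3 of 3 tested were higher against Cre controls and 3 of 4 against floxed controls. Krt16 did not reach the filter in all libraries of either control group. The 8 listed skeletal muscle markers summed to 413 to 538, 1490.1 to 1564 and 1884 to 2135, and Myog and Myod1 were not listed. That sum was set by Tnnt3 (217 ± 38.3, 1433 ± 42.2 and 1701 ± 156; SD), the 1 of 4 tested called lower against Cre controls, while Acta1 was called higher (log2 difference 1.96 ± 0.20, limma adjusted p = 0.000587) and the median of the 4 was 0.61. Against floxed controls Acta1 did not pass (log2 difference 0.97 ± 0.58, limma adjusted p = 0.289). There 1 of 7 tested muscle markers, Tnnt3, was called lower and 0 higher. Tnnt3, Acta1, Lyz2, Mmp9 and Ctsk were named after their values were seen.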

How the data were processed

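RNA-seq libraries of 8 samples (KAPA stranded mRNA kit, per the labels' protocols) were compared over the 3 pairs of groups and against the mean of the 2 control groups. The authors deposited, for each pair, a normalized expression signal per gene and library, that is, read counts divided by a library size factor, per the file headers. The same deposited tables give the authors' log2 fold change, a Wald statistic (a score) and p-values. Trim Galore, cutadapt, STAR, HTSeq and DESeq2 are named in the submitters' processing notes. Not given in the sources used here: their versions, the genome build, and whether counting used strand. Reads of overlapping antisense genes may therefore be shared. Values are whole multiples of 1 read in 100% of cases (tolerance 0.001 reads), so reads were recovered.

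Genes were tested if their value was 10 or more in 3 libraries (2 where a group had 2), using limma 3.58.1 (R 4.3.3, trend) on log2(value + 1) within each pair, with Benjamini-Hochberg adjustment over all tested genes and a threshold of 0.05. This scale understates changes of low genes. The fits were tested on simulated data. Against Cre controls they recovered 37.3% of 1.5-fold and 64.2% of 2-fold changes, and against floxed controls 10.4% and 55.2%. At each of these folds the simulation changed 67 of 14851 and 67 of 15212 genes, far fewer than were called in the data. With so few changed genes the adjusted threshold is stricter, so these shares do not give the power of the tests reported here. A difference that did not pass may still be a change of that size. Alternatives were edgeR 4.0.16 quasi-likelihood and DESeq2 1.42.0 on the recovered reads, the authors' deposited table, other pseudocounts (0.5 and 5), other filters, TMM and library-total scaling, 1 fit of all 8 libraries, embryo sex as a covariate and leaving out each library. A lone library left in a group was assumed to vary like the other groups. No 2 libraries of a group were alike within counting error (chi-square over its degrees of freedom 10.3 to 84.2 in 7 pairs). Exon lengths are GENCODE M21 unions, matched for 98.8% of IDs; promoter windows are RefSeq's. Python 3.11.15 made the tables. Replicate numbers follow accession order. All 10 members were named in every comparison, with up to 4 called genes per direction of each pathway list by smallest p, and the 3 most correlated genes of each member called against both controls. 1 of these correlated genes is not reported here. The members and lists were chosen with earlier results of these data known. Differences are Cre-Idh1 minus control.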

Additional observations from a re-analysis of the deposited data

How the results depend on the processing

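Over the 10 members, 563 alternative results were computed: 506 kept their direction and side of the threshold, 35 lost a call, 4 gained one and 18 changed sign, the sign changes being in values that were not called. Against Cre controls, the count of called genes was 1898 with embryo sex as a covariate, beside 2849. Against floxed controls it was 3554 at an adjusted p of 0.1, 4095 in the authors' deposited table and 3596 in 1 fit of all 8 libraries, beside 2196. The other Wnt pathway genes called there numbered 31 in the authors' deposited table and 28 in 1 fit of all 8 libraries, beside 18. Between the controls DESeq2 called 86 genes, 36 were called in the authors' deposited table and 1 in 1 fit of all 8 libraries, beside 2. Leaving out single libraries gave 1176 to 3840 genes against Cre controls, 219 to 3751 against floxed controls and 1 to 92 between the controls. Members called ranged from 3 to 5, 0 to 4 and 0 to 0 in these comparisons, and from 4 to 5 against the mean of the controls. Other Wnt pathway genes called ranged from 12 to 30, 1 to 25 and 0 to 0.

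Leave-one-out log2 differences that crossed 0 were Dkk1 -0.091 to 0.69 and Dkk3 -0.27 to 0.61 against Cre controls. Against floxed controls they were Dkk1 -0.65 to 0.12, Dkk3 -0.11 to 0.78 and Tcf7 -0.45 to 0.033. Against the mean of the controls they were Dkk1 -0.37 to 0.41 and Dkk3 -0.19 to 0.70. Between the controls they were Sfrp1 -0.0018 to 0.15, Sfrp2 -0.39 to 0.37, Sfrp5 -0.20 to 0.46, Wif1 -0.014 to 0.38, Dkk3 -0.42 to 0.057 and Notum -0.52 to 0.29. Scaling by library total gave -0.012 for Sfrp1 between the controls. The cause of these shifts was not tested. Depth limits Dkk1, Sfrp2 and Nkd2 most. No paired analysis was possible because the labels give no replicate numbers shared between groups.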
